A study of Sus scrofa with 226 samples.

Results

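OSMR-positive neurons are sensory neurons of the pig dorsal root ganglion, chosen by a level of OSMR (ENSSSCG00000016851) of at least 50 CPM, the count over the cell's total scaled to 1e+06. At 2 days in culture 25 of 78 neurons met this rule, and at 1 day 33 neurons met it and 91 did not, which gave 58 OSMR-positive cells (28.7% of the neurons of these days). With 8 more at 3 days they were 66 cells, 29.2% of all neurons in the series. All cells came from wild-type (WT) pigs, 10 animals aged 11 to 20 weeks, whose ganglia were dissociated and kept as a neuron culture. Each cell was patch-clamped, then taken up whole with a wider pipette, and its RNA was read with Smart-Seq2, a full-length method that carries no molecular identifiers. The question was what differed in these neurons between the second and the first day in culture, in gene counts and in the parameters recorded from the same cells.

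OSMR encodes a cytokine receptor subunit that pairs with IL31RA to form the receptor for interleukin-31 and with IL6ST (gp130) to form the oncostatin M receptor. Both receptors signal through JAK kinases and STAT transcription factors. In mouse ganglia OSMR, IL31RA, SST (somatostatin) and NPPB (a natriuretic peptide) mark a class of C-fibre neurons known for itch.

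The comparison rested on the 7 animals with such neurons on both days, 19 cells at 2 days and 32 at 1 day. Animals 1, 2, 4, 5, 6, 7 and 9 gave 2, 1, 4, 2, 2, 4 and 4 cells at 2 days, and 6, 6, 4, 4, 1, 3 and 8 cells at 1 day. Animals 8 and 10 had 1 and 5 such cells at 2 days and none at 1 day, and animal 3 had 1 at 1 day and no neuron at 2 days. The labels do not say how single cells were picked. The share of neurons that were OSMR-positive averaged 38.3 ± 25.1% at 2 days and 26.8 ± 20.2% at 1 day (SD, n = 9 animals, exact two-sided sign-flip test p = 0.242), higher in 5 animals and lower in 4. Each animal had equal weight, and some shares rested on few neurons. Animal 1 had 100% of 2 neurons at 2 days, and animal 8 had 0% of 2 neurons at 1 day.

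The choice of cells used OSMR itself, so its levels are given as a description. OSMR ran from 50.3 to 977 CPM with a median of 297 at 2 days, and from 63.2 to 778 CPM with a median of 301 at 1 day. The 3 cells just above the threshold had 50.3, 63.2 and 71.6 CPM, and their IL31RA was 0, 0 and 2.65 CPM. The 3 just below it had 45.8, 43.5 and 43.02 CPM of OSMR, with 22.5, 0 and 1.72 CPM of IL31RA. The threshold therefore passed through cells with little or no IL31RA on either side.

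The markers were present in most of the cells on both days. IL31RA reached at least 50 CPM in 21 of 25 cells at 2 days and in 31 of 33 at 1 day, and SST in 19 and 24. NPPB reached that level in 22 of 25 cells at 2 days and in all 33 at 1 day. The neuropeptide gene TAC1, which encodes substance P, had medians of 6771 CPM at 2 days and 6898 CPM at 1 day. JAK1, the kinase bound to these receptors, had medians of 1250 and 1328 CPM, in the same order of days.

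**Figure D1:**
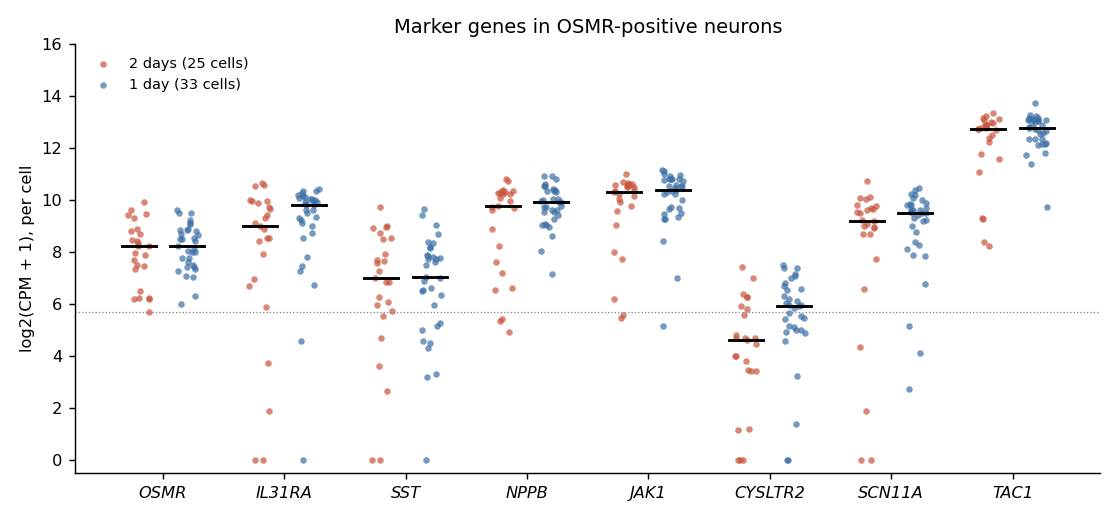
Marker genes in single OSMR-positive neurons, as log2(CPM + 1) per cell, for 25 cells at 2 days (left of each pair) and 33 cells at 1 day. Bars are medians and the dotted line is 50 CPM. The medians of OSMR are 297 and 301 CPM, and the points of the days overlap for every gene.

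In 6 cells IL31RA was under 50 CPM. Of these, 4 had at least 50 CPM of NPPB (97.2 to 524 CPM), 1 of SST (75.6 CPM) and 1 of CYSLTR2. Those at 2 days came from animals 1, 6, 9 and 10, and both at 1 day came from animal 9. The cell of animal 6 had 686 CPM of OSMR beside 594 CPM of TYROBP and 1890 CPM of CTSS, both genes of macrophages, and its macrophage markers summed to 4944 CPM. Others had 2064 CPM of ADCYAP1 with 697 CPM of TRPM8, the cold receptor (animal 10), 4144 CPM of ADCYAP1 (animal 9, 1 day) or 5849 CPM summed over endothelial and mural markers (animal 9, 1 day). Results that rest on these cells are given below with and without them, the restriction having been chosen after seeing the data.

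Depth and other cell types overlapped between the days. Total counts per cell ran from 185217 to 5506280 at 2 days (median 658472) and from 195422 to 3317740 at 1 day (median 885411). The summed macrophage markers ran from 6.22 to 6516 CPM at 2 days (median 72.6) and from 12.2 to 1157 CPM at 1 day (median 81.4), with medians of 0 for CSF1R, TYROBP, C1QB, C1QC and AIF1 on both days. The highest, 6516 CPM, was in a cell of animal 10, which has no OSMR-positive cell at 1 day. It enters no paired test of genes, recorded parameters or library measures, but counts in the test of the OSMR-positive share. Satellite glia markers had medians of 92.9 CPM at 2 days and 142.7 CPM at 1 day, and the mitochondrially encoded share of counts had medians of 5.27% and 4.66%. Of 9 such library measures, 0 passed the exact sign-flip test over 7 animals (adjusted p = 0.953 for each), and 0 had an unadjusted p under 0.05. The part of these measures in the results below was not tested.

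Of the 36 recorded parameters with a value in 7 animals, X20Hz and cslow lay farthest apart between the days relative to the SD of the animals' differences. The deposited cell table gives no unit or definition for its columns, so they are named here as it names them. The column cslow carries the usual name for slow capacitance, which follows the membrane area of a cell. The columns X2Hz to X100Hz are named by frequency and ran from 0 to 20 in these cells.

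In each animal cslow was lower at 2 days than at 1 day. Animal means at 2 days were 77.955, 97.8, 91.1, 66.995, 133.9, 113.975 and 71.6 in animals 1, 2, 4, 5, 6, 7 and 9. At 1 day the same animals had 98.4, 120.9, 170.4, 106.4, 166.7, 140.3 and 119.1. The days overlapped between animals, since animals 6 and 7 at 2 days lay above animals 1 and 5 at 1 day, and the smallest gap within an animal was 20.4 in animal 1. The mean was 93.3 ± 24.2 at 2 days and 131.8 ± 28.3 at 1 day (SD, n = 7), a difference of -38.4 ± 20.4. Over single cells cslow ran from 21.5 to 171.8 with a median of 94.5 at 2 days, and from 27 to 192.2 with a median of 127.4 at 1 day.

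X20Hz was higher at 2 days in each of the 7 animals. At 2 days animals 1, 2, 4, 5, 6, 7 and 9 had means of 20, 14, 11, 20, 11, 12.8 and 14.2. At 1 day they had 10.7, 8.5, 1.25, 9, 6, 4 and 7. The days did not overlap, the lowest animal at 2 days (11) lying above the highest at 1 day (10.7). The mean was 14.7 ± 3.83 at 2 days and 6.63 ± 3.21 at 1 day (SD, n = 7), a difference of 8.08 ± 2.24. The largest value, 20, was reached by 12 of 25 cells at 2 days and by 4 of 33 at 1 day, while 2 and 15 cells had a value of 3 or less. Among cells with at least 50 CPM of IL31RA, 8 of 21 at 2 days and 2 of 31 at 1 day reached 20.

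Neither passed the adjustment over all 45 parameters tested. By an exact sign-flip test over animals, run two-sided, p = 0.0156 for cslow, X20Hz and AHP_new (adjusted p = 0.216 for each), the smallest p that 7 animals allow. A pass would have needed 15 parameters at that p, and 3 reached it. By this exact test 0 of 45 parameters passed (0%) and 6 (13.3%) had an unadjusted p under 0.05, 2 higher and 4 lower at 2 days. With limma over all standardised parameters X20Hz alone was called (adjusted p = 0.0475), and cslow had an adjusted p = 0.131. Without the animal as a block, over 17 animal means of either day, the permutation test gave an adjusted p = 0.0722 for X20Hz and 0.156 for cslow.

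**Figure D2:**
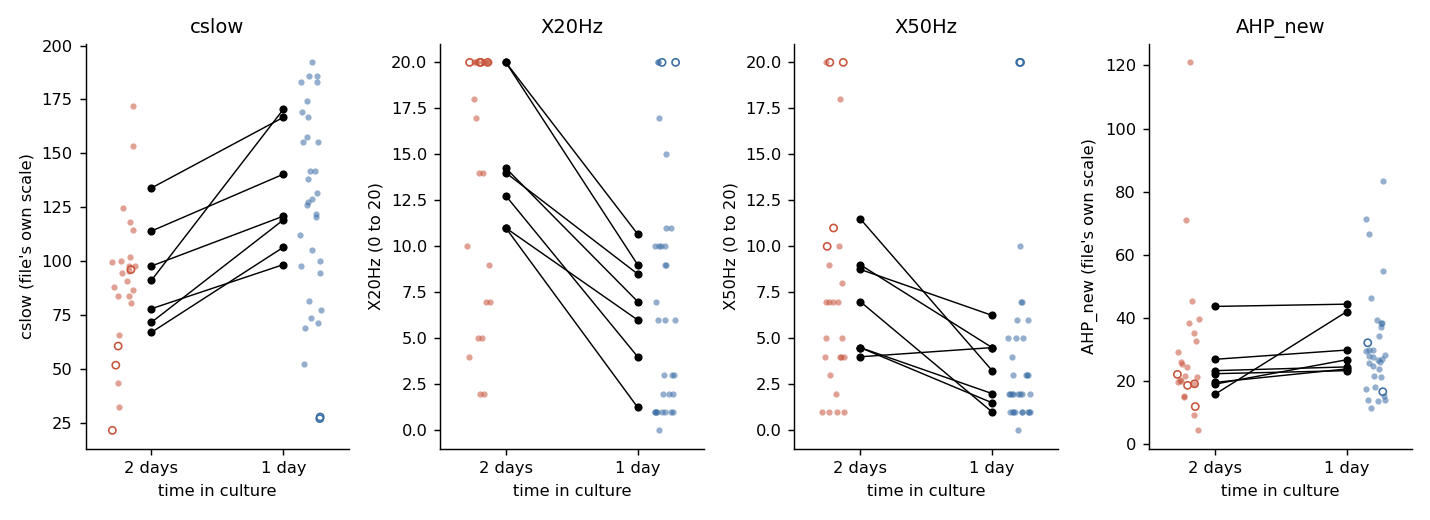
Values of 4 recorded parameters of OSMR-positive neurons on the scales of the deposited table. Black points joined by lines are the means of the 7 animals at 2 days (left) and 1 day (right), coloured points are single cells of all animals, and open circles are the 6 cells with IL31RA under 50 CPM. The line of each animal is lower at 2 days for cslow and AHP_new and higher at 2 days for X20Hz.

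The other frequency values lay in the same direction. X50Hz averaged 7.04 ± 2.85 at 2 days and 3.29 ± 1.91 at 1 day and was higher in 6 of 7 animals (exact p = 0.03125, adjusted p = 0.216). X10Hz averaged 16.5 and 10.7 in the same order (exact p = 0.0625, adjusted p = 0.216), X4Hz 16.8 and 12.6 (exact p = 0.125, adjusted p = 0.256), X2Hz 18.7 and 14.6 (exact p = 0.156, adjusted p = 0.281) and X100Hz 3.25 and 2.10 (exact p = 0.0938, adjusted p = 0.248). Each of X4Hz, X10Hz and X100Hz was higher at 2 days in 6 of 7 animals, the animal that went the other way being animal 6 for X4Hz and X10Hz and animal 2 for X100Hz. These columns come from the same cells and are not independent of each other.

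Across cells a low cslow went with a high X20Hz on both days. Spearman's rho was -0.62 over 25 cells at 2 days and -0.70 over 33 cells at 1 day. Among cells with at least 50 CPM of IL31RA it was weaker, -0.56 over 21 cells at 2 days and -0.65 over 31 at 1 day. The column ADS_RT_ABS75 ran opposite to X20Hz, with a rho of -0.77 over 22 cells at 2 days and -0.70 over 20 cells at 1 day. With the same restriction on IL31RA this rho was -0.74 over 19 cells at 2 days and -0.59 over 18 at 1 day. Cells of 1 animal share its preparation, so these values describe the cells and carry no test.

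Among parameters of action potential shape, AHP_new, named for the afterhyperpolarisation, averaged 24.3 ± 9.22 at 2 days and 30.6 ± 8.86 at 1 day and was lower at 2 days in 7 of 7 animals. Its difference of -6.29 rested largely on animal 9, without which it was -2.97. With medians of cells in place of means AHP_new was lower in 5 of 7 animals (exact p = 0.156). APD averaged 3.76 ± 0.693 at 2 days and 4.30 ± 0.458 at 1 day (6 of 7 animals lower, exact p = 0.0469, adjusted p = 0.216), a difference of -0.53 that was -0.29 without animal 5 (exact p = 0.0938). Sinusscore_old averaged -7.96 ± 6.94 at 2 days and -1.71 ± 2.81 at 1 day, lower in 6 of 7 animals (exact p = 0.03125, adjusted p = 0.216).

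In the 5 animals with values on both days ADS_RT_ABS1 averaged 4.64 ± 0.732 at 2 days and 6.365 ± 1.23 at 1 day. ADS_RT_ABS75 averaged 5.00 ± 0.920 at 2 days and 7.11 ± 1.67 at 1 day. Both were lower at 2 days in 5 of 5 animals, where the smallest possible exact p is 0.0625. Among cells with at least 50 CPM of IL31RA, ADS_RT_ABS1 was lower in 4 of 5 animals (-1.53, exact p = 0.1875). ADS_RT_ABS75 was lower there in 5 of 5 (-1.90). Cell diameter was 42.1 ± 4.09 at 2 days and 42.1 ± 2.06 at 1 day in the 6 animals with a value (exact p = 1). Resting potential, named RMP, averaged -56.4 ± 4.18 at 2 days and -59.8 ± 7.56 at 1 day (exact p = 0.391 over 7 animals).

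**Figure D3:**
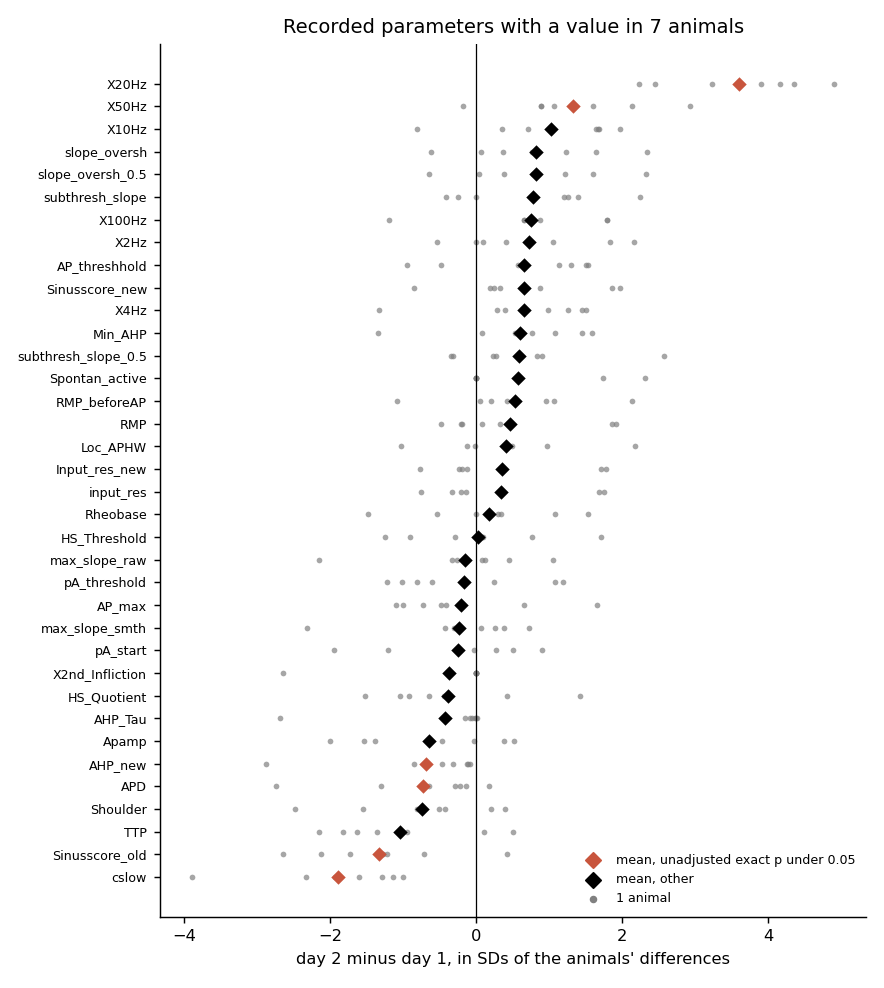
Day 2 minus day 1 for the 36 recorded parameters with a value in 7 animals, divided by the SD of the animals' differences. Grey points are animals and diamonds their means, red where the unadjusted exact p was under 0.05. X20Hz lies farthest to the right and cslow farthest to the left, and none passed the adjustment over all 45 parameters.

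The result for animal 6 turned on the cell with macrophage genes. Among cells with at least 50 CPM of IL31RA, X20Hz averaged 13.2 ± 6.11 at 2 days and 6.01 ± 3.53 at 1 day and was higher in 6 of 7 animals (exact p = 0.03125, adjusted p = 0.402). Animal 6, then with 1 cell on each day, had an X20Hz of 2 at 2 days and 6 at 1 day. In the same cells cslow averaged 103.6 ± 33.1 at 2 days and 136.1 ± 28.4 at 1 day and was lower in 6 of 7 animals (exact p = 0.0469, adjusted p = 0.402), while APD differed by -0.15 (exact p = 0.734). AHP_new was lower in 5 of 7 animals there (-5.59, exact p = 0.25), and Sinusscore_old also in 5 of 7 (-5.13, exact p = 0.109). The 6 cells under 50 CPM of IL31RA all had an X20Hz of 20.

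A wider threshold of 20 CPM of OSMR, which gave 8 animals, came with smaller differences. There X20Hz differed by 4.81 ± 5.43 (7 of 8 animals higher at 2 days, exact p = 0.0547) and cslow by -14.5 ± 41.5 (6 of 8 lower, exact p = 0.352). At 100 CPM the differences were 8 ± 2.27 and -41.8 ± 27.98, each in the same direction in 7 of 7 animals.

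The day difference was set against that of OSMR-low neurons (OSMR under 50 CPM). All animals together gave 53 such cells at 2 days and 91 at 1 day. The comparison used only those of the 6 animals with both classes on both days. X20Hz differed by 7.88 in OSMR-positive and by 1.13 in OSMR-low neurons, a difference between classes of 6.74 ± 2.94, positive in 6 of 6 animals. For cslow the values were -41.4 and -6.84, a difference of -34.6 ± 14.7, negative in 6 of 6 animals. Each had an exact p = 0.03125, the smallest that 6 animals allow, and an adjusted p = 0.281, so neither passed. By the exact sign-flip test 0 of 45 parameters passed and 4 had an unadjusted p under 0.05, the others being HS_Quotient and Spontan_active. AHP_new differed by -7.14 in OSMR-positive and -12.6 in OSMR-low neurons, and Sinusscore_old by -5.63 and -5.80. APD differed by -0.58 and 0.03 in the same order. At an OSMR threshold of 20 CPM the difference between classes was 3.88 for X20Hz (exact p = 0.188) and -9.07 for cslow (exact p = 0.547) over 7 animals. OSMR-low neurons averaged 18.3 ± 1.69 at 2 days and 17.2 ± 2.03 at 1 day for X20Hz (SD, n = 8 animals), close to its upper end of 20 on both days.

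Animals 2, 4 and 7 also had OSMR-positive neurons at 3 days, 3, 2 and 3 cells. At 1, 2 and 3 days cslow averaged 120.9, 97.8 and 77.95 in animal 2, 170.4, 91.1 and 74.1 in animal 4, and 140.3, 113.975 and 100.02 in animal 7. It was lower on each later day in all 3 animals. X20Hz was 8.5, 14 and 16.7 in animal 2, 1.25, 11 and 10 in animal 4, and 4, 12.8 and 9.67 in animal 7, so the value at 3 days lay above that at 1 day in each of them and above that at 2 days in animal 2. AHP_new, lower at 2 days than at 1 day in these animals, lay above its 1-day value at 3 days in each of them. In animals 2, 4 and 7 it was 26.72, 44.35 and 23.82 at 1 day, and 30.47, 67.67 and 36.17 at 3 days. APD at 3 days lay above its 1-day value in animals 2 and 4 and below it in animal 7. Sinusscore_old at 3 days lay above its 1-day value in animals 4 and 7 and had no value in animal 2. With 3 animals no test could fall below 0.25 and none was run.

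**Figure D4:**
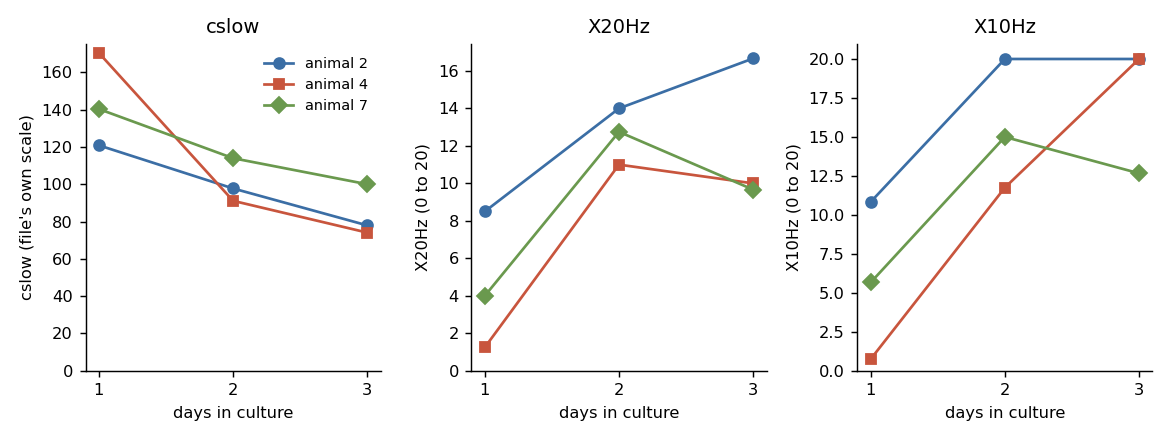
Means of cslow, X20Hz and X10Hz at 1, 2 and 3 days in culture in OSMR-positive neurons of the 3 animals with cells on every day. Each line is 1 animal, with 2 or 3 cells at 3 days. The cslow lines lie lower on each later day, and the X20Hz lines lie higher at 2 and 3 days than at 1 day.

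For the genes, counts were summed over the OSMR-positive cells of each animal and day, and the sums were compared by edgeR's quasi-likelihood test, each animal forming a block. The sums held from 607789 to 12142066 counts at 2 days and from 885139 to 8275511 at 1 day. Of 10529 genes tested 0 passed at an adjusted p under 0.05 (0%), and 317 (3.01%) had an unadjusted p under 0.05, 93 (0.883%) higher and the rest (2.13%) lower at 2 days. Over all genes tested the median log2 fold change was -0.13 and 6384 (60.6%) lay below 0, against which the values and counts below can be read. DESeq2 called 5 genes (0.0475%, with 7.61% at an unadjusted p under 0.05) and limma on animal means of cells called 0 (4.03%). Log2 fold changes below are day 2 over day 1 from edgeR with SE, each with an adjusted p = 0.999 in edgeR, and levels are log2 CPM of the sums.

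Among receptor genes IL31RA had a level of 9.13 ± 0.82 at 2 days and 9.61 ± 0.38 at 1 day (SD, n = 7), a log2 fold change of -0.47 ± 0.31. It was lower in 5 of 7 animals, by most in animals 1 and 6, which each held a cell under 50 CPM of it at 2 days. Animal 9, with such cells on both days, was higher at 2 days. Without the cells under 50 CPM, a cut on IL31RA itself, the log2 fold change was -0.36 ± 0.26. IL6ST, the shared subunit, had 0.72 ± 0.58 and was higher in 4 of 7 animals. Its direction turned to -0.29 ± 0.64 without the cells under 50 CPM of IL31RA and to -0.08 ± 0.70 at 100 CPM of OSMR, and it was 0.26 without animal 1. LIFR, the partner used by leukaemia inhibitory factor, had 0.01 ± 0.51.

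Among the signalling genes JAK1 had -0.23 ± 0.21 and was lower in 6 of 7 animals. JAK2 had levels of 3.75, 3.71, 5.11, 4.01, 5.05, 6.67 and 5.76 at 2 days in animals 1, 2, 4, 5, 6, 7 and 9. At 1 day it had 5.44, 4.41, 6.38, 5.83, 5.86, 6.01 and 6.17. It was lower in all but animal 7, with -0.87 ± 0.39 and an unadjusted p under 0.05 in edgeR, and -1.02 ± 0.68 with an unadjusted p = 0.155 in edgeR without the cells under 50 CPM of IL31RA. STAT3 had -0.30 ± 0.33 and PTPN11, a phosphatase of the pathway, 0.49 ± 0.39 (6 of 7 animals higher). Without OSMR, by which the cells were chosen, the receptor signalling list had 17 genes with an identifier, of which 11 were tested. Of these 0 passed, 6 lay below 0 and the median was -0.23. With OSMR at 20 CPM the median was 0.19, so its direction depended on the threshold. SOCS1, SOCS3 and CISH, the feedback inhibitors, had too few counts to be tested.

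SST, an inhibitory neuropeptide and the class marker, was higher at 2 days in 6 of 7 animals. Its levels at 2 days were 9.20, 8.05, 8.27, 6.75, 8.95, 6.92 and 7.14 in animals 1, 2, 4, 5, 6, 7 and 9. At 1 day they were 8.11, 7.95, 7.48, 6.21, 7.90, 6.93 and 6.84. Animal 7 had nearly the same level on both days, and the ranges of the days overlapped. The log2 fold change was 0.56 ± 0.23, with an unadjusted p under 0.05 and no pass in edgeR. Over the alternatives tried it ran from -0.24, in limma on animal means of cells and the only one below 0, to 0.70, and the median of single cells was 128.02 CPM at 2 days and 128.6 CPM at 1 day.

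NPPB had a level of 9.26 ± 1.25 at 2 days and 10.05 ± 0.33 at 1 day and a log2 fold change of -0.72 ± 0.34, lower in 5 of 7 animals and by most in animal 5 (6.61 at 2 days, 9.82 at 1 day), without which it was -0.39. CYSLTR2, a leukotriene receptor of these neurons in mouse, had 5.04 ± 1.12 at 2 days and 5.95 ± 0.38 at 1 day and was lower in 6 of 7 animals (-0.90 ± 0.46), all but animal 4. TRPV1, the capsaicin receptor, had -1.002 ± 0.53 and no count in the 2-day sum of animal 5, without which it was -0.63. Of the 19 genes of the SST C-fibre list other than OSMR 12 were tested, 9 lay below 0, 0 passed and the median was -0.59. With OSMR at 20 CPM the median was 0.02.

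The genes that DESeq2 called were led by RASL11A, a small GTPase of the Ras family. Its levels at 2 days were -0.04, -0.97, 5.31, 1.99, 1.55, 0.20 and 1.84 in animals 1, 2, 4, 5, 6, 7 and 9, the value of animal 2 standing for 0 counts. At 1 day they were 5.19, 6.17, 3.95, 5.52, 7.23, 5.90 and 5.82. Animal 4 alone was higher at 2 days, and the 6 others were lower by at least 3.53. The log2 fold change was -4.77 ± 1.00 in edgeR, without a pass, and -4.97 ± 0.77 in DESeq2 (adjusted p = 1.46e-06). Without animal 4 edgeR called it alone (-5.57, adjusted p = 0.0329). In single cells RASL11A had a count in 13 of 25 cells at 2 days, 21 of 33 at 1 day and 0 of 8 at 3 days.

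PPP4R3B, a regulatory subunit of protein phosphatase 4, was higher at 2 days in 7 of 7 animals. Its levels at 2 days were 6.43, 6.87, 5.37, 6.23, 6.33, 5.79 and 7.10 in animals 1, 2, 4, 5, 6, 7 and 9, against 4.66, 6.005, 4.01, 4.89, 3.34, 4.13 and 4.81 at 1 day. The log2 fold change was 1.75 ± 0.36 in edgeR, without a pass, and 1.78 ± 0.31 in DESeq2 (adjusted p = 5.42e-05). The days overlapped through animal 2, whose 1-day level lay above the 2-day levels of animals 4 and 7.

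TPM4, a tropomyosin that binds actin filaments, was higher in 6 of 7 animals with 2.59 ± 0.57 in edgeR and was called by DESeq2 (2.65, adjusted p = 0.000843). MAST4, a microtubule-associated kinase, was higher in 7 of 7 animals with 2.52 ± 0.72 and was called by DESeq2 (2.58, adjusted p = 0.0367). SCO2, a mitochondrial copper chaperone, was the fifth gene called by DESeq2 (-4.27, adjusted p = 0.0194), with counts in 2 of 7 sums at 2 days and 7 of 7 at 1 day. It was named after its values were seen. None of these 5 passed in edgeR on all 7 animals with the filter on low counts, or in limma. RASL11A, TPM4 and SCO2 passed in edgeR without that filter.

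Other genes higher at 2 days in 7 of 7 animals, without a pass in edgeR, were SMS (spermine synthase, 1.03 ± 0.33), ARID1B (a chromatin remodelling subunit, 1.25 ± 0.43), ZNF507 (1.25 ± 0.44), MTSS1 (1.06 ± 0.38) and SMAD4 (the shared SMAD of TGF-beta signalling, 1.41 ± 0.51). EIF5B, CLIC4, CLK1 and JPH1 were higher in 6 of 7 animals, with log2 fold changes from 0.89 to 1.98. With PPP4R3B, TPM4 and MAST4 these were the 12 genes with the smallest unadjusted p among 240 that met the rule on level and direction, so their size and sign were fixed by that choice.

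Lower at 2 days in 7 of 7 animals was RGS4, which shortens G-protein signalling. Its levels at 2 days were 8.78, 8.43, 10.19, 9.72, 9.37, 10.05 and 9.60 in animals 1, 2, 4, 5, 6, 7 and 9, against 10.95, 10.97, 10.23, 11.40, 11.24, 10.18 and 10.61 at 1 day. The days were close in animals 4 and 7 and farther apart in the other 5, and the lowest 1-day levels overlapped the highest 2-day level. The log2 fold change was -1.35 ± 0.32 in edgeR, without a pass. With no filter on low counts edgeR called 20 genes, among them RGS4 (-1.47, adjusted p = 1.39e-05), TUBA1B, TUBB2B, PNP and SFRP4. Another was ENSSSCG00000047299, whose unadjusted p in edgeR was 3.43e-06 without the filter and 0.194 with it. It had counts in 7 of 7 sums on each day, so dropping the filter lowered p for well-counted genes too. The medians of RGS4 in single cells at 1, 2 and 3 days were 1237, 845 and 577 CPM.

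SFRP4, a secreted WNT-binding protein, had -2.24 ± 0.62 and HAX1, a mitochondrial survival factor, -1.61 ± 0.45, both lower in 7 of 7 animals and without a pass in edgeR. DYM, PGM2 and RIMS2 were also lower in 7 of 7 animals, with log2 fold changes from -1.44 to -0.96. PNP (purine nucleoside phosphorylase, -1.71 ± 0.50), ASS1 (argininosuccinate synthase, -1.10 ± 0.34), DDX39B and PPME1 were lower in 6 of 7. They came from 441 genes that met the same rule in that direction. Among cells with at least 50 CPM of IL31RA, all 12 genes of each direction kept their sign and 0 passed in edgeR. An unadjusted p under 0.05 was left for 5 of the 12 higher and 10 of the 12 lower genes. The restricted cells are part of the set in which the genes were chosen, so these counts largely follow from that choice. RGS4 had -1.29 ± 0.30, RASL11A -4.34 ± 1.06 and PPP4R3B 1.46 ± 0.39 there, while SMS had 0.63 ± 0.42, CLIC4 0.46 ± 0.35 and ARID1B 0.63 ± 0.79.

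Genes of the neuronal cytoskeleton were mixed. TUBA1B, an alpha-tubulin, had levels of 12.64, 12.53, 13.42, 12.60, 12.37, 12.55 and 13.28 at 2 days in animals 1, 2, 4, 5, 6, 7 and 9. At 1 day it had 13.61, 13.73, 13.59, 13.49, 14.01, 13.08 and 13.38. It was lower in each animal, by least in animal 9, with -0.78 ± 0.25 and no pass (-0.89 and adjusted p = 0.000177 in edgeR with no filter on low counts), and its median over cells was 7607 CPM at 2 days and 10572 CPM at 1 day. TUBB had -0.53 ± 0.23 and TUBB2B -0.89 ± 0.39, each lower in 6 of 7 animals, while STMN2 (-0.08), TMSB4X (0.02) and NEFL (0.25) lay near 0. Over single cells the median of TUBB was 761 CPM at 2 days and 731 CPM at 1 day, and that of TUBB2B 1582 and 1875 CPM. Of 24 cytoskeletal genes tested 16 lay below 0, which is near the share of all genes, 3 had an unadjusted p under 0.05 and 0 passed, and the median was -0.14. Tubulin genes are similar in sequence, and how the authors' counting divided reads between them is not given in the sources used here.

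Sterol synthesis was the list with the most genes at an unadjusted p under 0.05. Of 19 tested 17 lay below 0, the median was -0.60, and 7 had an unadjusted p under 0.05, all lower, while 0 passed in edgeR. MSMO1 had a level of 9.04 ± 0.70 at 2 days and 9.76 ± 0.49 at 1 day (-0.69 ± 0.29), SQLE, the squalene epoxidase, 6.94 ± 0.53 and 7.65 ± 0.44 (-0.71 ± 0.29), and INSIG1, a sterol sensor, 4.79 ± 0.92 and 5.97 ± 1.15 (-1.12 ± 0.47). HMGCS1 (-0.54), FDFT1 (-0.74), NSDHL (-1.08) and STARD4 (-1.72) were the others, and all 7 except NSDHL were lower in 6 of 7 animals. Others of the list ran from DHCR7 at -1.81 to LSS at 0.91, with IDI1 at 0.01 ± 0.25 and CYP51A1 at -0.20 ± 0.21. With at least 2 cells in each sum 0 of the 19 had an unadjusted p under 0.05, and over all alternatives the median of the list ran from -0.73 to -0.38. These genes are used by glia as well. Of 6 satellite glia markers tested in the same fit 5 lay below 0 and 0 passed, with a median of -0.78 that lay between -1.76 and -0.05 under the alternatives, and their part in the sterol values was not tested.

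Ion channel genes had 0 passes in edgeR. Of 11 sodium channel genes 7 lay below 0, near the share of all genes (median -0.15), with SCN9A at 0.08 ± 0.29, SCN10A at -0.50 ± 0.31 and SCN11A at 0.09 ± 0.22, the last 3 being the channels typical of C-fibres. Of 18 potassium channel genes 13 lay below 0 (median -0.57), from KCNG3 (-1.97 ± 1.04) to KCNK1 (0.63 ± 0.51), and KCNIP4, which had the most counts of them, had -0.41 ± 0.25. Of 8 calcium and HCN channel genes 7 lay below 0 (median -0.53). In the list of TRP, purinergic, mechanical and acid-sensing channels 13 of 16 lay below 0 (median -0.56), and TRPC6 (-1.61 ± 0.74) and TMC3 (-0.74 ± 0.34) had an unadjusted p under 0.05. Many of these genes had few counts, and low counts in sums of 1 or 2 cells widen such values.

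Among the neuropeptide and processing genes 15 of 16 lay below 0 with a median of -0.38. The 3 with the most counts were TAC1 (-0.05 ± 0.26), NMB (-0.53 ± 0.32) and SCG2 (-0.10 ± 0.22), while CARTPT (-1.84 ± 0.87) and CHGA (-1.26 ± 0.60) were lower in 7 of 7 animals at low levels. Without the cells under 50 CPM of IL31RA 11 of the 16 neuropeptide and processing genes lay below 0 (median -0.36). That is near the share of all genes in that fit, 68.4%. The injury and regeneration list had 14 of 23 below 0, near the share of all genes, and a median of -0.14. Heat shock genes had 10 of 14 below 0 (median -0.16), HSPA8, a constitutive chaperone, being lower in 7 of 7 animals (-0.44 ± 0.20) and HSP90AA1 having -0.01 ± 0.20. Of neurotrophic factor receptor genes 9 of 13 lay above 0 (median 0.29), with INSR, the insulin receptor, at 1.27 ± 0.50. The mitochondrially encoded genes had 8 of 13 above 0 and a median of 0.11. In none of these lists did a gene pass in edgeR.

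**Figure D5:**
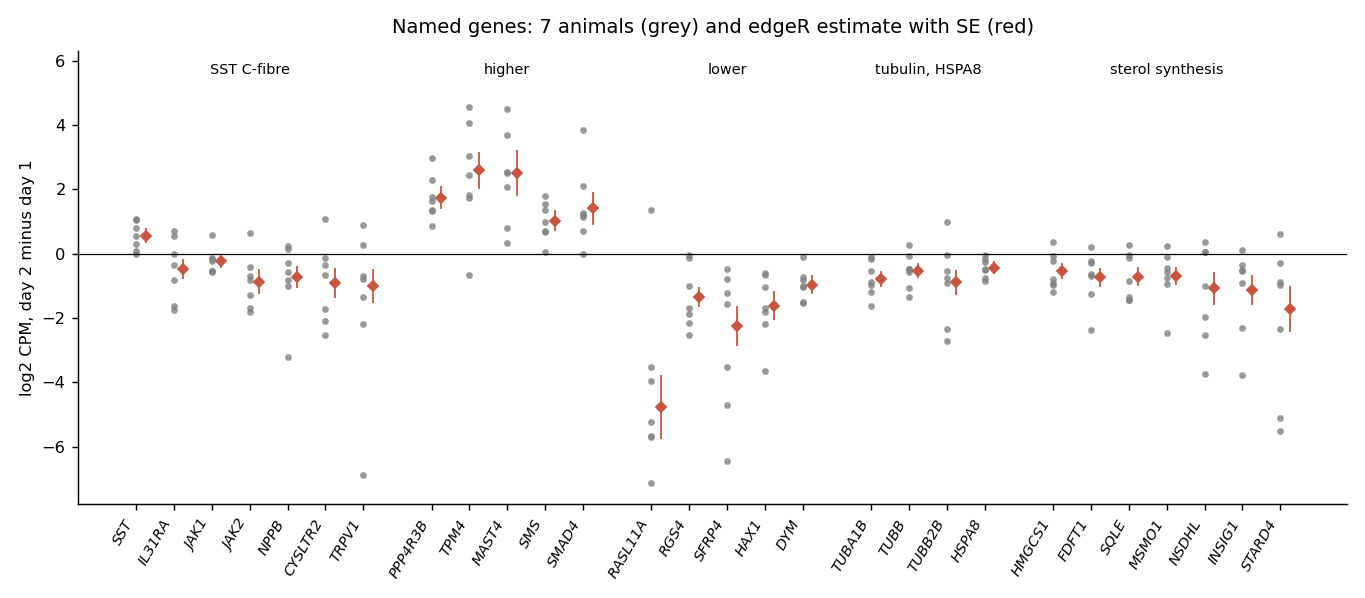
Log2 CPM at 2 days minus 1 day for named genes of the OSMR-positive neurons. Grey points are the 7 animals and red diamonds the edgeR estimate with its SE. Points of RGS4, TUBA1B and HSPA8 lie below 0 in all 7 animals, those of PPP4R3B and MAST4 above 0, and no gene passed in edgeR.

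The day difference was also compared between OSMR-positive and OSMR-low neurons gene by gene, as an interaction in edgeR. Of 16234 genes 0 passed (0%) and 313 (1.93%) had an unadjusted p under 0.05. With DESeq2 size factors in the same test 0 passed and 306 had an unadjusted p under 0.05. The largest estimates among the named genes were those of RASL11A (-4.83 ± 1.10), SFRP4 (-3.66 ± 1.40), MAST4 (2.94 ± 0.78) and RGS4 (-2.59 ± 0.77), each with an adjusted p = 0.999 in edgeR. No gene is therefore shown to differ with the day in a way particular to the OSMR-positive neurons.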

How the data were processed

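Cells, days in culture and ages were taken from the sample titles, and animals from the deposited cell table. The authors deposited estimated counts of 30420 genes per cell. For aligner, counting tool and build, none was given in the sources used here. The submitters' processing notes name bcl2fastq 2.20. Of the values above 0, 52.14% were not whole. The authors' deposited cell table holds other recorded values without units. Of its 51 recorded parameters 45 were tested, those with values in at least 70% of the cells that were neither constant (3) nor copies (2).

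CPM was the count over the cell's total times 1e+06. Counts were summed per animal and day, rounded, filtered with filterByExpr, scaled by TMM and tested with edgeR 4.0.16 (R 4.3.3), the animal being a block and p-values adjusted by Benjamini-Hochberg over all genes. Animals, as named in the cell table, pair the days. DESeq2 1.42.0 and limma 3.58.1 were alternatives. Log2 CPM values used a prior count of 2. Recorded parameters were averaged per animal and tested with an exact two-sided sign-flip test. The code was tested on simulated data. Intervals were not computed for single counts, since reads without molecular identifiers are not independent.

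Named genes were the receptor signalling and SST C-fibre lists, up to 12 genes in each direction with mean log2 CPM over 4, a symbol and at most 1 animal against the direction of the others, by adjusted p and then unadjusted p, and other list members with an unadjusted p under 0.05. Further list members are named as examples chosen after their values were seen. A few genes that the rule names are not reported here. The members and lists were chosen with earlier results of these data known. Of 1653 pairs of member cells 0 had identical values. Cell numbers lay in 1 run of consecutive numbers for 6 of the 7 animals, runs being separated by gaps of more than 10. Of 30420 identifiers 14867 had a symbol. The cell table's other 43 lines belong to no sample used here.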

Additional observations from a re-analysis of the deposited data

Results flagged for a closer look

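In OSMR-positive neurons the day 2 minus day 1 difference of 1 animal stood apart from those of the other 6 for 17 of the measures and genes examined (14.3%). Chance marks about 1 in 20 such groups. For the recorded parameters, animal 6 had a max_slope_raw difference of -110 (others -16.6 to 53.98), a max_slope_smth difference of -33.8 (others -6.23 to 10.7) and an X4Hz difference of -8.5 (others 1.83 to 9.62). Animal 9 had a subthresh_slope_0.5 difference of 15.0 (others -2.02 to 5.25), an AHP_new difference of -26.2 (others -7.73 to -0.716) and an X2nd_Infliction difference of -0.25 (others 0). Animal 5 had an AHP_Tau difference of -477 (others -26.2 to 3.31), and animal 2 an X100Hz difference of -1.83 (others 1 to 2.75). The summed macrophage markers of animal 6 were higher at 2 days by 2440 CPM (others -546 to 83.5).

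For genes, as log2 CPM, the animal apart was animal 2 for LIFR (-2.72), animal 9 for JAK1 (0.59), animal 7 for PTPN11 (-0.92), animal 4 for RASL11A (1.37) and animal 1 for RIMS2 (-4.07). For animal 5, with the smallest sum at 2 days (607789 counts), it was NPPB (-3.21), TRPV1 (-6.88) and OTOA (-3.99).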

How the results depend on the processing

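The count of genes called in OSMR-positive neurons was 0 in edgeR and stayed 0 with DESeq2 size factors, at least 2 cells per sum, OSMR thresholds of 20 and 100 CPM, the IL31RA restriction and in limma. It was 5 with the DESeq2 test, 20 of 27681 without a filter on low counts (3 higher, 17 lower at 2 days) and 0 to 1 when each animal was left out in turn, the 1 being RASL11A without animal 4. The cause was not tested. Without the animal as a block 0 of 10402 genes were called (394 at an unadjusted p under 0.05) and the median log2 fold change moved to 0.03, against -0.13 with it. The share of genes at an unadjusted p under 0.05 was 1.43% with at least 2 cells per sum and 1.91% at 100 CPM of OSMR, against 3.01%.

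The count of recorded parameters passing was 0 and became 1 with limma. It was 0 under the other alternatives, without the block included (6 at an unadjusted p under 0.05). With at least 2 cells per animal and day, 5 animals remained and no p could fall below 0.0625. Over all alternatives X20Hz differed by 4.81 to 9.43 and cslow by -42.6 to -14.5. Of 45 parameters 31, and of 64 named genes tested 50, had the same sign under every alternative. Most of these genes were named for their direction or p in the same data, so a kept sign largely follows from that choice. Of those named by list alone, most changed sign under some alternative, OSMR, IL31RA, IL6ST and SST among them. Sums of 1 or 2 cells limit the precision in animals 1, 2, 5 and 6.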

Other observations

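Without a filter on low counts, edgeR's test of OSMR-positive neurons at 2 days against 1 day also called genes that the filter removes. CXCL10 and CXCL11, chemokines induced by interferon, were lower at 2 days (adjusted p = 9.45e-07 and 0.0119 in edgeR without the filter), with counts in 3 and 1 of 7 sums at 2 days and in 5 and 4 at 1 day. TOP2A and PBK, genes of dividing cells, were higher (adjusted p = 0.00864 and 0.0101 in the same fit), with counts in 3 and 4 sums at 2 days and in 2 at 1 day. Their levels therefore came from a few sums, and which cells carried them was not tested.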
